A study of Arabidopsis thaliana with 2 samples.

Results

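The cytochrome P450 genes of Arabidopsis thaliana were compared between the wax-deficient mutant cer6-2 and its wild type, Ler-0. Members were the genes whose symbol in the array's annotation is CYP followed by a number. This took 19 of 9236 named genes. The gene table describes 18 of them as cytochromes P450, and these are the genes described here. The other gene, CYP71, is a cyclophilin that shares the prefix. Each P450 gene had 1 named feature on the array. The gene table holds 245 P450 genes in all, so most of the superfamily has no named value here. Only 9375 of the 22575 features were annotated with a gene, and any P450 gene among the others could not be found. A gene is called measured here when a named feature gave its value, so an unmeasured gene may still be on the array.

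Per the labels, RNA came from leaves and stems of untreated 15-day-old plants (2 weeks in the design text), kept at 22 °C and a relative humidity of 80%, in days of 16 h light followed by 8 h dark. One group was the cer6-2 mutant and the other the Ler-0 wild type, both kept on the same shelf of one phytotron, and 20 plants were pooled per genotype. Both pools were hybridised together on 2 two-colour Agilent arrays with exchanged dyes, cer6-2 in Cy3 on array 1 and in Cy5 on array 2. The arrays were taken as repeat measurements of 1 pool per genotype, so there is no p-value and no check of the genotype difference in a second pool.

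Cytochromes P450 are haem enzymes, mostly anchored in the endoplasmic reticulum, that use electrons from NADPH to insert an oxygen atom into a substrate. Plants carry large families of them, numbered by sequence similarity, for making and breaking down hormones, lignin, pigments, surface lipids and defence compounds. CER6 elongates the very-long-chain fatty acids of surface wax, and in stems a P450, CYP96A15, hydroxylates wax alkanes made from such chains. CYP71 is one of the largest plant P450 families. Its subfamily CYP71B lies largely in tandem gene clusters and includes the camalexin enzyme CYP71B15. No feature was named for CER6, CYP96A15 or CYP71B15 here.

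Values are log2 ratios of cer6-2 over Ler-0, averaged over the arrays, with the SD of the 2 arrays after the ± sign (n = 2 technical measurements). A value of 1 is a 2-fold and one of 0.58 a 1.5-fold difference. The direction is likely, not settled. It rests on the stated dyes, on reading the ratio as Cy5 over Cy3 and on taking the columns as not turned before deposit. With the ratio read as Cy3 over Cy5, higher and lower change places. Had the columns been turned already, genes with the same sign in both arrays would have opposite signs. A ratio carries no expression level, so a value near 0 may also come from a transcript that was barely detected. Fewer cells expressing a gene and less RNA per cell cannot be told apart in pooled tissue.

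None of the 18 genes differed 2-fold or more in the same direction on both arrays, against a background of 1.32% of all named genes (122 of 9236). By direction the background was 0.595% higher and 0.725% lower. A share of 1.32% of 18 genes is less than 1 gene, so the count of 0 does not set the P450 genes apart from the rest. Their means ran from -0.93 to 0.69, with a median of -0.10 beside a median of 0 over all named genes. Array 1 alone gave a median of 0.10 and array 2 alone one of -0.23, on opposite sides of 0. By mean, 12 genes lay below 0 and 6 above, where all named genes divided into 4498 below and 4572 above. The median size of the mean, regardless of sign, was 0.25 for the P450 genes and 0.15 for all named genes. By mean 3 of the 18 (16.7%) were 1.5-fold or more from 0, against 7.23% of all named genes. These 3 include the neighbours CYP71B22 and CYP71B23, which may not be independent measurements. Without this pair, left out after its values were seen, the median size of the mean was 0.16 over the other 16 genes.

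At the lower threshold of 1.5-fold in both arrays, 3 of 18 P450 genes passed, 2 lower and 1 higher in cer6-2. The background was 3.7% of all named genes, with 1.91% lower and 1.8% higher. The lower genes were CYP71B22 and CYP71B23, neighbours on the chromosome that may not be independent measurements. Without this pair, left out after its values were seen, 1 of the other 16 genes (6.25%) passed. The higher gene was CYP78A9. The count of 3 rests on both arrays together and was 5 with array 1 alone and 6 with array 2 alone, where 14% and 15.2% of all named genes passed. Had the authors turned the columns already, which no source states, these 3 genes would lie apart in opposite ways. Under that reading 3.7% of all named genes would do so, and the count would be 1, against 1.46%. CYP84A4 also passed 1.5-fold in each array, but in opposite ways, as did 1.46% of all named genes.

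**Figure D1:**
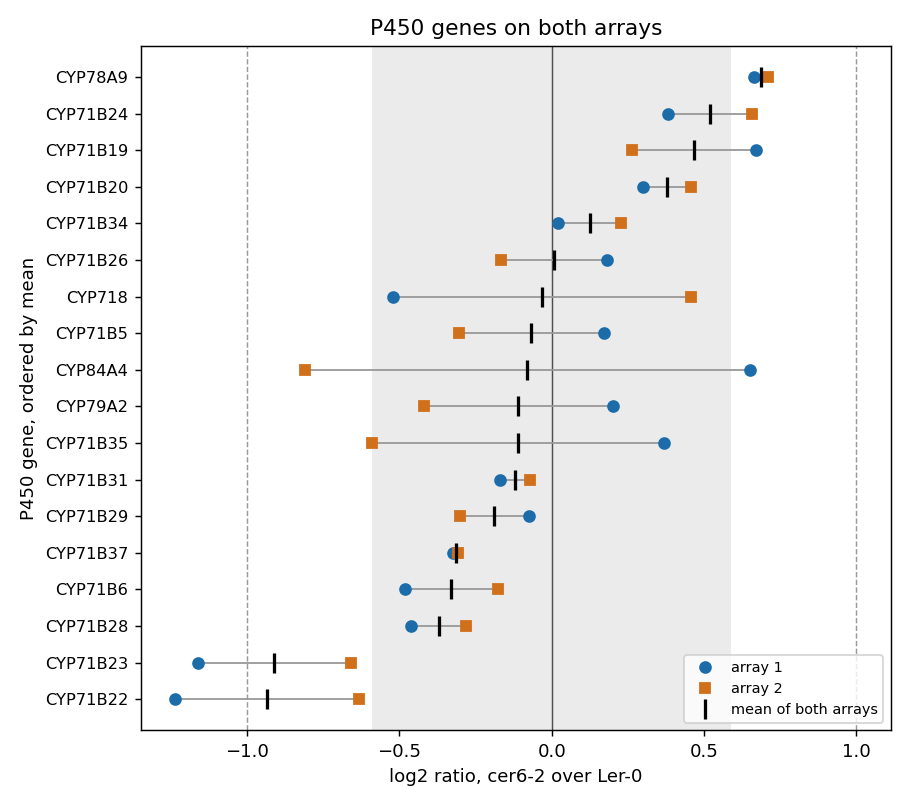
Log2 ratio of cer6-2 over Ler-0 (x axis) for the 18 P450 genes (y axis, ordered by mean), with circles for array 1, squares for array 2 and bars for their mean. The grey band spans 1.5-fold either way and the dashed lines mark 2-fold; CYP71B22 and CYP71B23 lie left of the band in both arrays and pass 2-fold only in array 1, and CYP78A9 lies right of it in both.

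CYP71B22 had the lowest mean of the P450 genes. It stood at -1.24 in array 1 and -0.63 in array 2, a mean of -0.93 ± 0.43, which is 1.91-fold lower in cer6-2. Both arrays put it below 0, and only array 1 put it beyond 2-fold. Of all named genes, 1.59% had a mean this low or lower (147 genes).

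CYP71B23 had nearly the same values as CYP71B22. It stood at -1.16 in array 1 and -0.66 in array 2, a mean of -0.91 ± 0.35, 1.88-fold lower. The means of this pair differed by 0.02, far less than either gene's SD between arrays. No gene of the gene table lies between them. CYP71B22 and CYP71B23 were the 2 P450 genes past 2-fold with array 1 alone, as were 3.56% of all named genes, and with array 2 alone there were 0, against 4% of all named genes. They are paralogs whose probes may share signal, which was not tested, so they may not be independent measurements. Without both genes the median of the other 16 was -0.07.

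CYP78A9, a P450 known to promote fruit and seed size when overexpressed, had the highest mean. It stood at 0.66 in array 1 and 0.71 in array 2, a mean of 0.69 ± 0.03, 1.61-fold higher in cer6-2. The arrays nearly coincided, and 2.41% of all named genes had a mean this high or higher (223 genes). CYP78A9 was the only measured member of a list of 6 CYP78A genes of organ growth.

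CYP84A4 shows how far the arrays could part for a single gene. This enzyme hydroxylates p-coumaraldehyde on the route to the pyrones called arabidopyrones. It stood at 0.65 in array 1 and -0.81 in array 2, a mean of -0.08 ± 1.03. In each array the value was on the side of the same dye, whichever genotype carried it, so no direction can be given for it.

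The CYP71 family held 14 of the 18 genes, all of the subfamily CYP71B. Its median was -0.12, with -0.03 in array 1 and -0.23 in array 2. Of the 14 genes, 7 were below 0 in both arrays, 4 were above 0 in both, and 3 changed sign. Of the 9236 named genes, 1885 were below 0 in both arrays, 2134 were above 0 in both, and 4955 changed sign. None of the 14 was 2-fold apart in the same direction on both arrays, against 1.32% of all named genes. At 1.5-fold 2 passed (14.3%), against 3.7% of all named genes. These 2 are the neighbours CYP71B22 and CYP71B23, which may not be independent measurements. CYP78, CYP79, CYP84 and CYP718 had 1 measured gene each, and no feature was named for CYP81, CYP86 or CYP94.

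A cluster on chromosome 3 holds 18 CYP71B genes, 2 of them transcribed pseudogenes, of which 9 were measured. The values went both ways along it. CYP71B19 stood at 0.67 in array 1 and 0.26 in array 2, a mean of 0.47 ± 0.29. Its direct neighbour CYP71B20 stood at 0.30 and 0.46, a mean of 0.38 ± 0.11. Both were above 0 in each array, and their means differed by 0.09.

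Next among the measured genes came the low pair CYP71B22 and CYP71B23, and then a gene on the other side of 0. CYP71B24 stood at 0.38 in array 1 and 0.66 in array 2, a mean of 0.52 ± 0.19, 1.43-fold higher in cer6-2. It had the highest mean of the CYP71B genes. Only 1 gene of the gene table, CYP71B3, lies between CYP71B23 and CYP71B24, and their means differed by 1.43, which exceeds the SD between arrays of each gene (0.35 and 0.19). The array ranges of these 2 genes do not overlap.

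The far end of the cluster held smaller values. CYP71B26 stood at 0.18 in array 1 and -0.17 in array 2, a mean of 0.01 ± 0.24, with opposite signs. CYP71B34 stood at 0.02 and 0.23, a mean of 0.12 ± 0.15. CYP71B35 stood at 0.37 and -0.59, a mean of -0.11 ± 0.68, so its arrays disagreed in sign. CYP71B37, the last gene of the cluster, stood at -0.32 and -0.31, a mean of -0.32 ± 0.01. Of these 4 genes, CYP71B35 alone passed 1.5-fold in an array, the second one.

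**Figure D2:**
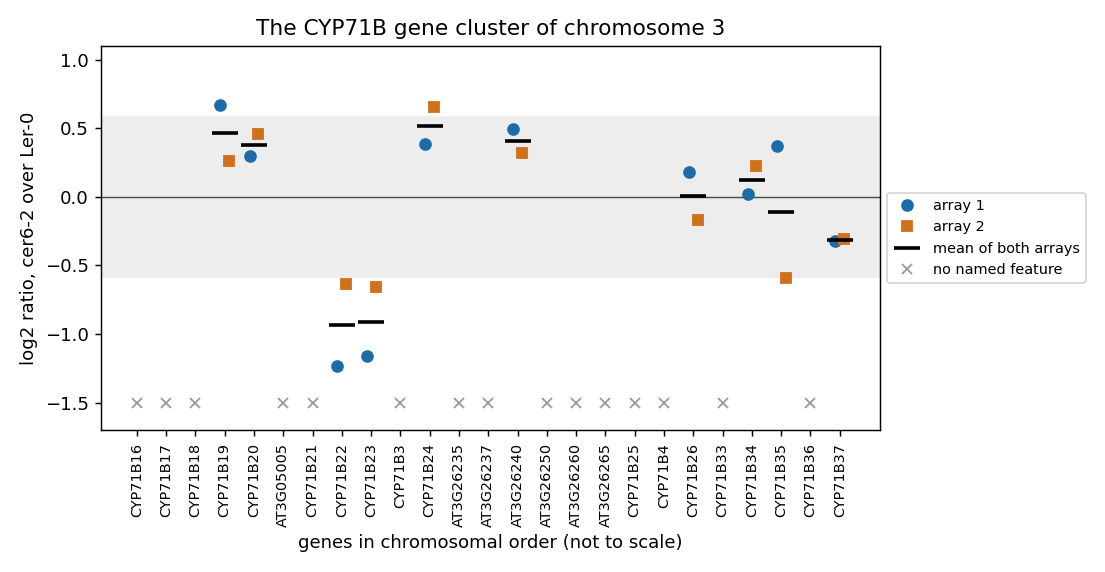
Log2 ratio of cer6-2 over Ler-0 (y axis) for the genes of the CYP71B cluster of chromosome 3 in chromosomal order (x axis, equally spaced, not to scale), with circles for array 1, squares for array 2, black bars for the mean and a grey band of 1.5-fold either way. Crosses at the foot mark genes without a named feature and stand for no value; CYP71B22 and CYP71B23 lie below the band in both arrays, between CYP71B19 and CYP71B20 on one side and CYP71B24 on the other, all above 0.

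The 5 CYP71B genes outside that cluster all had means below 0, as did 4498 of the 9236 named genes. Their median was -0.19. Of these 5, CYP71B5 changed sign and 4 were below 0 in both arrays, against 1885 of all named genes. The lowest was CYP71B28 of chromosome 1, which stood at -0.46 in array 1 and -0.28 in array 2, a mean of -0.37 ± 0.13. Its direct neighbour CYP71B29 stood at -0.07 and -0.30, a mean of -0.19 ± 0.16. Both were below 0 in each array and within 1.5-fold of it.

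CYP71B6 converts indole-3-acetonitrile to indole-3-carbaldehyde and the matching acid, a branch of indole defence metabolism. It stood at -0.48 in array 1 and -0.18 in array 2, a mean of -0.33 ± 0.22, 1.26-fold lower in cer6-2. It was the only measured member of 5 genes listed for camalexin and indole carbonyl nitrile synthesis. Both arrays put it below 0, and neither reached 1.5-fold.

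A pair of CYP71B genes lies elsewhere on chromosome 3. CYP71B31, which oxidises the floral monoterpene alcohol linalool, stood at -0.17 in array 1 and -0.07 in array 2, a mean of -0.12 ± 0.07. CYP71B5 stood at 0.17 and -0.31, a mean of -0.07 ± 0.34, with opposite signs. Neither gene reached 1.5-fold in either array.

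The remaining single-gene families had means near 0, with arrays on opposite sides of it. CYP79A2 converts phenylalanine to its aldoxime, the first step to benzylglucosinolate. It stood at 0.20 in array 1 and -0.42 in array 2, a mean of -0.11 ± 0.44, and was the only measured member of 9 listed genes of the glucosinolate core pathway. CYP718 stood at -0.52 and 0.46, a mean of -0.03 ± 0.69. Both had opposite signs in the arrays, so no direction can be given for them, and were within 1.5-fold of 0 in each.

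The agreement of the arrays sets how far these values can be read. Of the 18 P450 genes, 12 had the same sign in both arrays (66.7%), 7 below 0 and 5 above. Over all named genes 43.5% had the same sign, where 262 genes at 0 in an array count as not the same. Among the P450 genes 0 had such a value. For 11 P450 genes (61.1%) the mean exceeded the SD between arrays, against 34.3% of all named genes. With 2 arrays this requires the same sign in both, so it is not a separate measure of agreement. The pooled SD between arrays was 0.40 for the P450 genes and 0.42 for all named genes. Across the 18 genes, which share both pools and both arrays, Pearson's r between arrays was 0.38 and Spearman's rho 0.33. Without CYP71B22 and CYP71B23, left out after their values were seen, they were 0.11 and 0.13, so the relation leaned on this pair. Within the 14 CYP71 genes, which include this pair, r was 0.65 and rho 0.63. Of the 4 genes of other families, 3 had opposite signs in the arrays. Over all named genes r was 0.17 and rho -0.04.

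**Figure D3:**
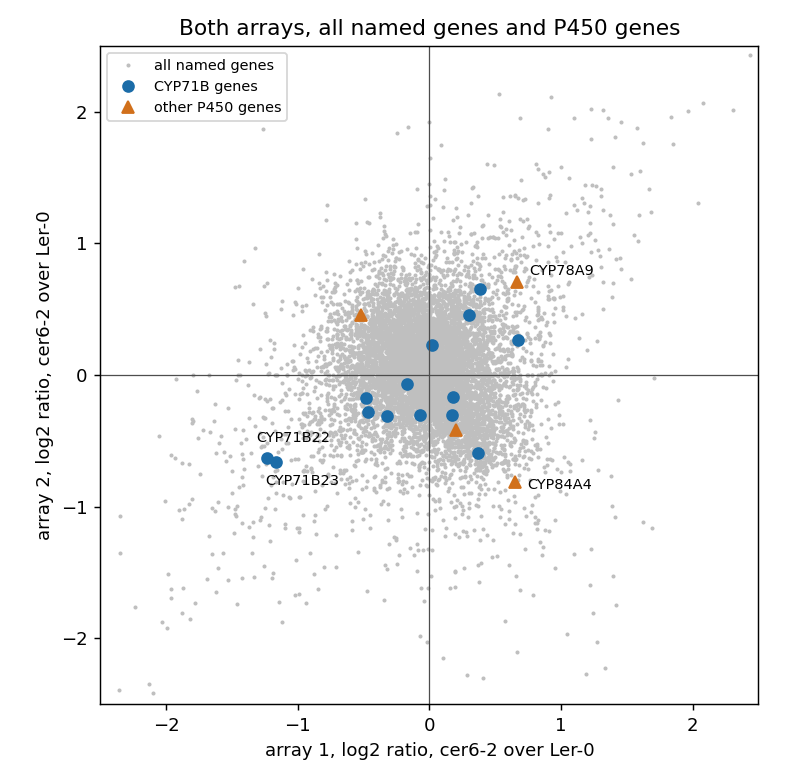
Log2 ratio of cer6-2 over Ler-0 in array 1 (x axis) against array 2 (y axis) for all named genes (grey points), the CYP71B genes (circles) and the other P450 genes (triangles), with 21 genes beyond 2.5 in size outside the frame. CYP71B22 and CYP71B23 lie below 0 in both arrays and CYP78A9 above 0 in both, while CYP84A4 lies in the quadrant where the arrays disagree.

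Pathway lists were thinly covered by named features. Lists of P450 names by role held 93 entries, of which 5 were measured. None of these was 2-fold apart in the same direction on both arrays, against 1.32% of all named genes. With 5 genes, a count of 0 does not set them apart from the rest. The lists for cutin, suberin, wax and sporopollenin, for jasmonate and oxylipins, and for brassinosteroid, gibberellin, abscisic acid, sterol, carotenoid and triterpene metabolism had no measured member, nor had those for indole glucosinolate modification and for cytokinin and strigolactone. None of 8 genes for redox partners, the reductases and cytochromes b5 that pass electrons to P450 enzymes, had a named feature.

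Of the non-P450 enzymes of the same pathways, 2 of 7 glucosinolate genes, 1 of 14 phenylpropanoid genes and 1 of 10 cutin and wax genes were measured. None was 2-fold apart in the same direction on both arrays, against 1.32% of all named genes. So few genes cannot show whether these pathways differed. WSD1, the measured cutin and wax gene, stood at -0.03 in array 1 and -0.23 in array 2, a mean of -0.13 ± 0.14. HCT, the hydroxycinnamoyl transferase of lignin synthesis, stood at -0.02 in array 1 and -0.10 in array 2. BCAT4, the aminotransferase that starts methionine chain elongation for glucosinolates, stood at 1.02 and 0.49, past 2-fold in array 1 alone. UGT74B1, the glucosyltransferase of glucosinolate synthesis, stood at 0.78 and -0.38, with opposite signs.

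Markers of leaf and root could be compared between the pools only as ratios, which show no level and so do not check the labelled tissue. Of 4 leaf markers 3 were measured, with means from 0.08 to 0.25. RCA and LHCB4.1 lay above 0 on each array, and LHCB4.2, the highest, had 0.71 in array 1 and -0.22 in array 2. All 3 root markers were measured, with means from -0.46 to 0.73, and only PYK10 had the same sign in both arrays. PYK10, the highest, had 0.79 in array 1 and 0.68 in array 2, past 1.5-fold in both. EXPA7, the lowest, had 0.26 and -1.18, and EXPA18 had 0.06 and -0.37. Whether a difference in tissue makeup took part in the P450 values was not tested.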

How the data were processed

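The table deposited by the authors gives 22575 features on each array, read here as log10 ratios of the channels. The base was inferred from values that stop at 2 in size, a 100-fold ratio. Each column's median was 0. For image software, background correction, dye normalisation and filters, details were not given in the sources used here. Array 1 was multiplied by -1 by its dyes and values were converted to log2. As deposited, 122 of the named genes past 2-fold on both arrays had opposite signs and 15 had equal signs, and on that basis the columns were treated as unturned. Over all named genes the signs lean the other way: after turning, 4955 genes had opposite signs and 4019 the same.

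Features were named by gene identifier through the platform annotation and the RefSeq gene table of assembly TAIR10.1, used for names and gene order alone. Of 9375 annotated features, 40 had several genes, and 9317 matched 1 gene of the table, giving 9236 genes, features averaged. CYP718 has no subfamily letter and was kept as a P450 because the gene table calls it one.

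A gene was called when it differed 2-fold or more in one direction on both arrays. It is a threshold on size, and no test was run. The rule for named genes took called members, members apart in opposite ways, the extremes of each family with 3 or more genes, members on a role list and called partner genes; with 18 members all are named. WSD1, HCT, BCAT4, UGT74B1 and the markers are named outside it, chosen after their values were seen. Members and lists were chosen with earlier results of these data known. The calling code was tested on simulated data. Python 3.11.15, pandas 2.3.3, numpy 2.4.6 and matplotlib 3.10.9 were used. Alternatives covered the threshold, single arrays, centring, discordant features, averaging, log base, turning and member names. The number of arrays limits the precision.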

Additional observations from a re-analysis of the deposited data

How the results depend on the processing

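The count of P450 genes that differed 2-fold or more in one direction on both arrays was 0. It was also 0 by the mean of both arrays, with array 2 alone and after centring on named genes. The other alternatives that gave 0 did so by construction and say nothing of stability. A 3-fold threshold, leaving out features that differ over 2-fold between arrays and reading the table as log2 can only lower a count. Each P450 gene has 1 feature, taking any symbol or synonym found the same number of genes, 18, and the reading of columns as turned by the authors calls only genes apart in opposite ways, of which there were 0. The count was 3 at 1.5-fold, against 3.7% of all named genes. It divided into 1 higher and 2 lower, against 1.8% and 1.91%, with 1 more gene in opposite ways, against 1.46%. With single arrays it ran from 0 to 2, in all and lower, the 2 being CYP71B22 and CYP71B23 in array 1. Of all named genes, 3.56% passed with array 1 alone (215 of 329 genes lower) and 4% with array 2 alone. With settings chosen after seeing the data, the count at 1.5-fold was 3 after centring. It was 5 with array 1 alone and 6 with array 2 alone, against 14% and 15.2% of all named genes. With the columns read as turned it was 1, against 1.46% of all named genes. CYP71B22, CYP71B23 and CYP78A9 then become the 3 genes apart in opposite ways, against 3.7% of all named genes. The median of the P450 genes, -0.10, ran from -0.23 to 0.10 by single array, so its direction is not settled. It was -0.11 after centring, -0.11 over the 17 genes without discordant features, which drops CYP84A4, -0.03 read as log2, and -0.07 without CYP71B22 and CYP71B23, also chosen after seeing the data. Centring shifted the means by -0.01 and turned the sign of 1 gene, CYP71B26, whose mean was 0.01. For 6 genes the sign rested on which array was used. Where construction does not set the change, the cause was not tested. No paired analysis was possible because the groups have no separate samples to pair: each ratio already compares both genotypes within an array. Ratios carry no signal level, so what dim signal limits cannot be given.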

Other observations

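These values were looked up after the others had been seen. The only measured gene inside the chromosome 3 cluster that is not a P450, AT3G26240, stood at 0.49 in array 1 and 0.32 in array 2, a mean of 0.41 ± 0.12. It follows CYP71B24 (0.52 ± 0.19) in the gene order, with 2 genes between them that had no named feature. The nearest measured gene before the cluster, AT3G26140, stood at -0.09 ± 0.37, and the nearest after it, AT3G26340, at -0.36 ± 0.43.

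Among 4 pairs of measured P450 genes with no gene between them, 3 had both means on the same side of 0. These were CYP71B19 with CYP71B20, CYP71B22 with CYP71B23, and CYP71B28 with CYP71B29, and their means differed by 0.09, 0.02 and 0.18. The fourth pair, CYP71B34 with CYP71B35, had means of 0.12 and -0.11. By mean all named genes divided into 4498 below 0 and 4572 above, so 3 of 4 pairs does not stand out. With neighbouring paralogs, shared probe signal and shared transcript change were not separated, and neither was tested.

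The cyclophilin CYP71, a nuclear protein with WD40 repeats that the symbol rule also takes, stood at 0.13 in array 1 and -0.16 in array 2, a mean of -0.01 ± 0.21. SQN, also called CYP40, is a cyclophilin as well and stood at 0.33 ± 0.12, with 0.41 and 0.25.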
